A study of Mus musculus with 10 samples.

Results

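Translation initiation factors are the proteins that bring the small ribosomal subunit and the initiator methionyl-tRNA to the start codon of an mRNA. Their genes were taken from the deposited expression table as all rows whose symbol is Eif, a digit from 1 to 6 and then only lower-case letters or digits, leaving out the Eif2ak kinase genes and symbols with -ps (pseudogenes). The rule found 71 of 54343 genes, and 48 of these passed the filter on low values (5 or more of the 10 libraries at an FPKM of 1 or above). FPKM counts a gene's fragments relative to its length and to all mapped fragments of the library. The other 23 genes lay below the filter. RNA came from 2 mouse tumour lines in culture, with 5 libraries of each. MC38 is the parental line, labelled wild type and bought from a vendor. MC38.T4 descends from MC38.huMSLN.34, a clone of MC38 transfected with the human mesothelin plasmid huMSLN.pcDNA3.1. That clone was grown as tumours in C57/BL6 mice for about 25 days, and the dissociated tumour cells were passaged in a dish for 10 generations. MC38.T4 was then started from 1 tumour cell clone with low mesothelin expression, so it stands for a single clone. Clonal selection, the transfection and the passage through a mouse cannot be told apart in this design. Both lines were grown in the same medium.

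An initiation event starts with eIF2, a trimer that carries the initiator tRNA with GTP, and eIF2B is the exchange factor that recharges eIF2 after each round. eIF3 is the large scaffold on the small subunit, and the eIF4 proteins bind the mRNA cap, unwind the leader and link the mRNA to eIF3. eIF1, eIF1A and eIF5 control which start codon is accepted, eIF5B joins the large subunit, and eIF6 keeps free large subunits from joining early. In tumour cells eIF4E and its inhibitors, the eIF4E-binding proteins, are the best known members, because growth signalling through mTORC1 releases eIF4E from them.

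The sum of FPKM over genes was 442183 to 484460, and 10723 to 10938 genes had an FPKM of 1 or more. The sources used here name no read totals, so no value carries a counting error. From the steps between the lowest values, depth was estimated at between 0.874 and 1.14 times that of MC38 replicate 1. MC38.T4 replicate 4 stood apart by Malat1 (124.8 FPKM, where the other 4 libraries of its line had 53.1 to 75.9), and FPKM summed to least in MC38 replicate 1. The tissue label says melanoma and the library names say colon carcinoma. Of 10 epithelial and intestinal markers none passed the filter (highest Cdh1, at most 1.10 FPKM), and Cdx2 was listed at 0 in every library. Of 7 melanocyte markers 1 passed (Mitf, at most 1.87 FPKM), and Tyr was listed at 0 in every library. The defining markers of both labels were thus at or near 0. Of 12 fibroblast and pericyte markers 7 were tested and were called higher in MC38.T4. The summed level of the list lay between 40.2 and 43.5 FPKM in MC38 and between 358.6 and 365.4 FPKM in MC38.T4. Col3a1 made up most of the sum in MC38.T4, with a mean of 6.44 FPKM in MC38 and 247 FPKM in MC38.T4. Of the 7, Col1a2, Pdgfrb and Acta2 passed the filter only through the MC38.T4 libraries, so their direction was fixed by the filter. Thy1 was listed at 0 in every library, and Fap, Lum and Col1a1 did not exceed 0.0613, 0.194 and 0.210 FPKM. Of 8 myeloid markers 2 were tested: Cd68 fell from 3.10 to 2.21 FPKM and Cd14 did not pass, at 3.44 and 3.19 FPKM. The myeloid list summed to between 6.71 and 8.40 FPKM in MC38 and between 4.98 and 6.91 FPKM in MC38.T4, with Adgre1 at 0 in every library and the leukocyte gene Ptprc at most 0.042 FPKM. The part of these markers in the results on initiation factor genes was not tested. In bulk RNA, fewer cells of a type and less RNA per cell cannot be told apart.

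More initiation factor genes were lower than higher in MC38.T4, counting genes of inhibitors such as Eif4ebp1 with the rest. Of the 48 tested genes 27 fell, 16 rose and 5 did not pass the test (limma on log2(FPKM + 1), Benjamini-Hochberg adjusted p under 0.05 over 11110 genes). Over all tested genes 42.9% fell and 43.1% rose, or 86% in either direction, so a call as such was common in this comparison. The shares among initiation factor genes were 56.3% lower and 33.3% higher. Their median log2 fold change was -0.23, against 0.00 over all tested genes. The median size of their change was 0.36 on the log2 scale, against 0.47 over all tested genes. Of the called genes 8 passed 2-fold, 7 lower and 1 higher. Over all tested genes 7.14% passed 2-fold downward and 10% upward. The 5 values of the lines did not overlap for 39 genes, 26 with MC38.T4 below and 13 with it above, where 77.4% of all tested genes were separated so, 38.9% below and 38.4% above. Whether the replicates were separate cultures is not stated in the labels, so the spread behind the p-values is that of these libraries alone and may be technical.

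The genes are among the more abundant mRNAs of these cells. The median of their mean levels was 126.0 FPKM, against 13.5 FPKM over all tested genes. They ranged from 3.19 FPKM for Eif2d to 934 FPKM for Eif5a, as means over the 10 libraries. Summed over all 71 rows they took between 1.59% and 1.63% of FPKM in MC38 and between 1.34% and 1.40% in MC38.T4, and the ranges did not overlap.

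**Figure D1:**
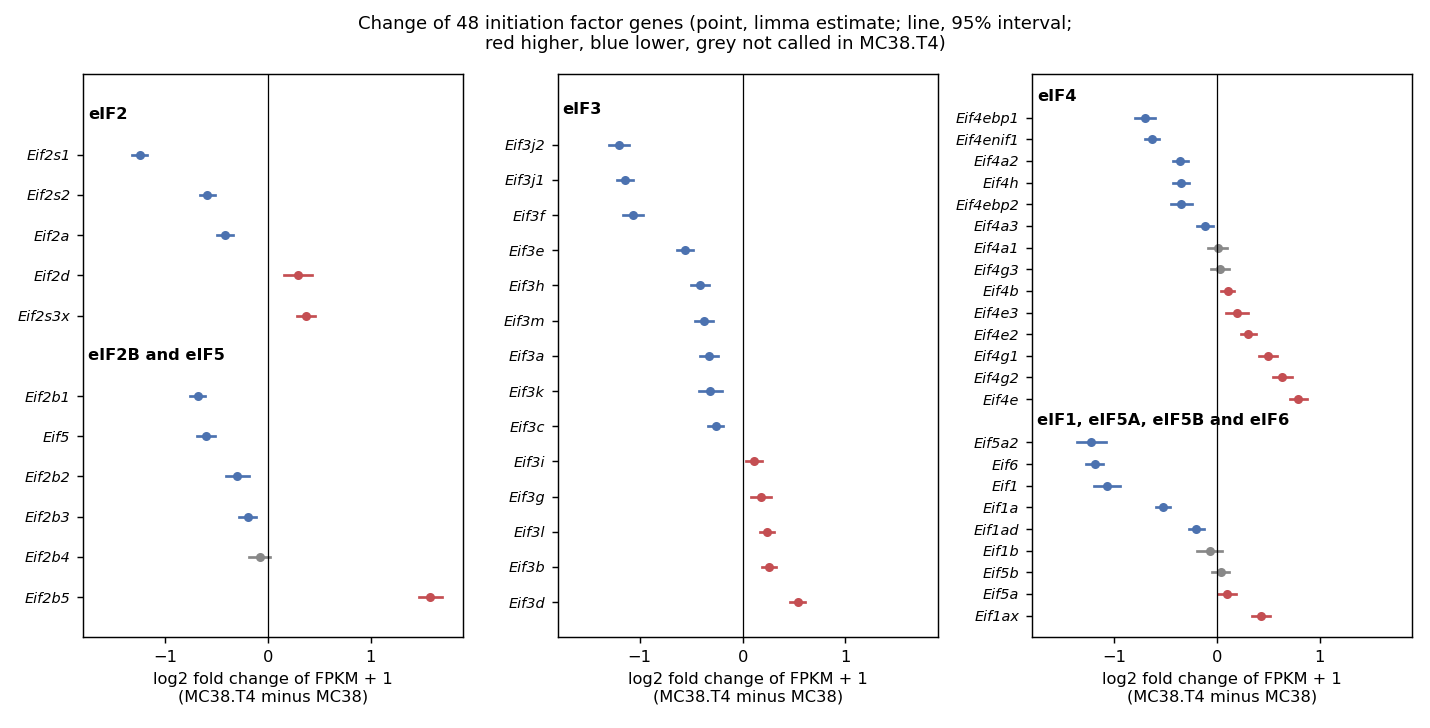
Change of the 48 tested initiation factor genes on the scale of log2(FPKM + 1), MC38.T4 minus MC38, with 5 libraries per line. Points are limma estimates and lines their 95% intervals, red for higher, blue for lower and grey for not called. Eif2b5 stands alone on the right at 1.58, while 7 genes lie beyond -1 on the left.

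The subunits of eIF2 moved in different directions. Eif2s1, which encodes the alpha subunit that stress kinases phosphorylate, stood at 178, 185, 170.4, 182 and 175 FPKM in MC38 replicates 1 to 5 and at 74.6, 76.0, 75.6, 73.4 and 71.5 FPKM in MC38.T4 replicates 1 to 5. Every MC38.T4 library lay below every MC38 library, a fall of 2.40-fold (log2 fold change -1.25, SE 0.03, limma adjusted p = 2.68e-14). Eif2s2, the beta subunit, had 330.3, 336, 316, 329 and 318 FPKM in MC38 and 207, 212, 228, 222 and 212 FPKM in MC38.T4. It also fell without overlap, by 1.51-fold (log2 -0.59, SE 0.04, adjusted p = 4.14e-10). Eif2s3x, the X-linked copy of the GTP-binding gamma subunit, gave 145, 134, 131, 141 and 129 FPKM in the 5 MC38 libraries and 171, 185, 182, 163 and 177 FPKM in the 5 MC38.T4 libraries. It went the other way, with all MC38.T4 libraries above all MC38 libraries, a rise of 1.29-fold (log2 0.37, SE 0.04, adjusted p = 9.54e-07). The Y-linked copy Eif2s3y was listed at 0 in all 10 libraries. In MC38 the alpha subunit mRNA stood at 1.31 ± 0.06 times the gamma subunit mRNA per length (SD, n = 5), and in MC38.T4 at 0.423 ± 0.019 times. The order of levels therefore ran Eif2s2, Eif2s1, Eif2s3x in MC38 and Eif2s2, Eif2s3x, Eif2s1 in MC38.T4, with no overlap between neighbours within a line.

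Both genes for other proteins that can bring tRNA to the ribosome passed the test, in different directions. Eif2a, a single-chain protein distinct from the alpha subunit of eIF2, fell from 50.9 ± 1.9 to 37.8 ± 1.3 FPKM (log2 -0.42, SE 0.04, adjusted p = 2.76e-08). Eif2d, a relative of the MCTS1 and DENR pair, had the lowest level of the 48 genes and the smallest change of this group. Its row was measured at 2.31, 2.90, 2.66, 3.01 and 2.96 FPKM in MC38 and at 4.10, 3.33, 3.48, 3.79 and 3.34 FPKM in MC38.T4. The rise was without overlap (log2 0.29, SE 0.06, adjusted p = 0.000571).

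**Figure D2:**
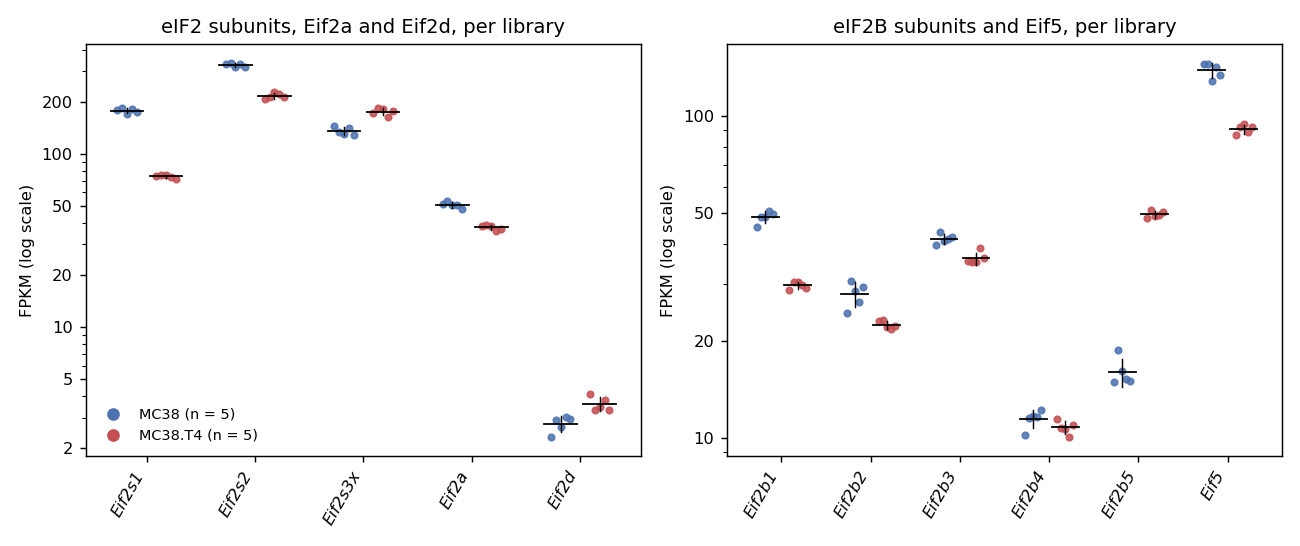
FPKM per library (log scale) of the eIF2 subunit genes, Eif2a and Eif2d (left) and of the eIF2B subunit genes and Eif5 (right). Points are libraries, horizontal bars are means and vertical bars are SD, n = 5 per line. Eif2s1 falls below Eif2s3x in MC38.T4, and Eif2b5 moves from 16.0 to 49.4 FPKM while Eif2b1 moves from 48.4 to 29.7 FPKM.

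Among the 5 eIF2B subunits the epsilon subunit rose and 3 others fell. Eif2b5, which encodes the catalytic epsilon subunit, had 14.9, 18.7, 16.1, 15.2 and 14.99 FPKM in MC38 and 47.96, 51.1, 48.8, 49.2 and 50.1 FPKM in MC38.T4. Its rise of 3.09-fold was the only change of at least 2-fold upward among the 48 genes (log2 1.58, SE 0.05, adjusted p = 4.11e-13). Eif2b1, a regulatory alpha subunit, gave 45.0, 48.6, 48.5, 50.4 and 49.5 FPKM in the 5 MC38 libraries and 28.8, 30.5, 30.4, 29.8 and 29.1 FPKM in the 5 MC38.T4 libraries. It fell 1.63-fold without overlap (log2 -0.69, SE 0.04, adjusted p = 6.91e-11). Eif2b2 (beta) fell from 27.9 ± 2.5 to 22.4 ± 0.65 FPKM and Eif2b3 (gamma, the partner of epsilon) from 41.5 ± 1.4 to 36.0 ± 1.6 FPKM. Eif2b4, the delta subunit, changed least. It was measured at 10.2, 11.5, 11.7, 11.6 and 12.2 FPKM in MC38 and at 11.5, 10.8, 10.6, 10.0 and 10.9 FPKM in MC38.T4. These ranges overlapped and the difference did not pass (log2 -0.08, SE 0.05, adjusted p = 0.132, 95% interval -0.18 to 0.02). It was called lower, at a log2 fold change of -0.12, without MC38 replicate 1 (limma adjusted p = 0.0117, within 0.0117 to 1 over 22 alternatives), and also with array weights, after quantile normalization, after rescaling to TPM and without both libraries that stand apart. Eif2b5 stood at 0.330 ± 0.034 times Eif2b1 in MC38 and at 1.66 ± 0.04 times in MC38.T4 (SD, n = 5). It was thus the fourth of the 5 subunit mRNAs by level in MC38 and the first in MC38.T4.

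Eif5, the GTPase activator that acts on eIF2 at the start codon, fell with most of this group. Its row had 145, 145, 128, 141 and 134 FPKM in MC38 and 86.8, 92.0, 93.9, 88.9 and 91.9 FPKM in MC38.T4. The lines did not overlap and the fall was 1.53-fold (log2 -0.60, SE 0.04, adjusted p = 1.30e-09).

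All 14 rows of eIF3 subunits passed the test, 9 lower and 5 higher. Over all tested genes 86% passed, 42.9% lower and 43.1% higher, so passing as such was common. Grouped by the known architecture, a grouping made with the values known, 7 of the 8 subunits of the octamer built on PCI and MPN domains fell (a, c, e, f, h, k and m) and Eif3l rose. All 3 genes of the module of b, g and i rose, as did Eif3d. The calls of Eif3g and Eif3i were the less secure of these: the ranges of the lines overlapped for both, and Eif3i was not called after rescaling to TPM (log2 fold change 0.06, adjusted p = 0.0574) or after a shift to equal medians (0.08, adjusted p = 0.0688), within 0.00136 to 1 over its 22 alternatives. Eif3g was not called by an exact rank-sum test (adjusted p = 0.0652, within 2.20e-05 to 1 over 22 alternatives).

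Both rows for eIF3j, the loosely held subunit that sits at the decoding site, showed the deepest falls of the complex. Eif3j1 gave 36.2, 37.6, 37.8, 40.5 and 37.3 FPKM in the 5 MC38 libraries and 16.7, 16.2, 17.3, 16.1 and 16.5 FPKM in the 5 MC38.T4 libraries. The fall was 2.29-fold without overlap (log2 -1.15, SE 0.04, adjusted p = 2.08e-13). Eif3j2 was measured at 95.7, 94.2, 84.3, 89.0 and 90.2 FPKM in MC38 and at 36.8, 38.7, 42.7, 36.2 and 40.0 FPKM in MC38.T4. It fell 2.33-fold, again without overlap (log2 -1.20, SE 0.05, adjusted p = 2.68e-12). The 2 genes are near-identical copies, and how reads shared by them were counted is not given, so the split between them is uncertain. Their sum went from 128.6 ± 4.1 to 55.5 ± 3.0 FPKM (SD, n = 5), and Eif3j2 held 70.5% ± 1.6 of it in MC38 and 70.1% ± 1.0 in MC38.T4.

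Within the octamer Eif3f, an MPN subunit, fell furthest, from 89.5 ± 5.7 to 42.2 ± 1.9 FPKM (log2 -1.06, SE 0.05, adjusted p = 7.54e-12). The other falls were smaller. Eif3e went from 316 ± 8.8 to 214 ± 8.9 FPKM and Eif3h, the second MPN subunit, from 353 ± 23 to 264 ± 5.7 FPKM. Eif3m went from 149 ± 7.5 to 115 ± 4.6 FPKM, Eif3a, the largest subunit, from 175 ± 6.1 to 139 ± 6.8 FPKM, and Eif3k from 162 ± 13 to 129.7 ± 5.5 FPKM. Eif3c, a core scaffold subunit, went from 198 ± 7.9 to 165 ± 2.3 FPKM. Against these, Eif3l rose from 131 ± 4.4 to 154 ± 3.4 FPKM.

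Outside the octamer the changes ran upward except for eIF3j. Eif3d, a subunit that can itself bind the cap of some mRNAs, had 122, 131, 131, 128 and 130 FPKM in MC38 and 189, 180.2, 179, 199 and 186 FPKM in MC38.T4. All MC38.T4 libraries were higher, by 1.45-fold in the mean (log2 0.53, SE 0.04, adjusted p = 1.51e-09). Eif3b, a subunit of the b, g and i module, gave 116, 111, 122, 119 and 121 FPKM in the 5 MC38 libraries and 143, 141, 138, 137 and 144 FPKM in the 5 MC38.T4 libraries. It rose 1.20-fold without overlap (log2 0.26, SE 0.03, adjusted p = 3.46e-06). Its module partner Eif3g went from 108 ± 2.9 to 123 ± 8.5 FPKM. Eif3i, a WD-repeat subunit, changed least of the complex. It was measured at 205, 238, 219, 221 and 225 FPKM in MC38 and at 238, 239.6, 237, 243 and 238 FPKM in MC38.T4. The lowest MC38.T4 library lay just under the highest MC38 library (log2 0.11, SE 0.04, adjusted p = 0.0137). Per length, Eif3d stood at 1.44 ± 0.06 times Eif3f in MC38 and at 4.43 ± 0.33 times in MC38.T4 (SD, n = 5). The ratio of the highest to the lowest mean among the 14 rows was 9.31 in MC38 (Eif3h over Eif3j1) and 15.9 in MC38.T4 (the same pair).

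**Figure D3:**
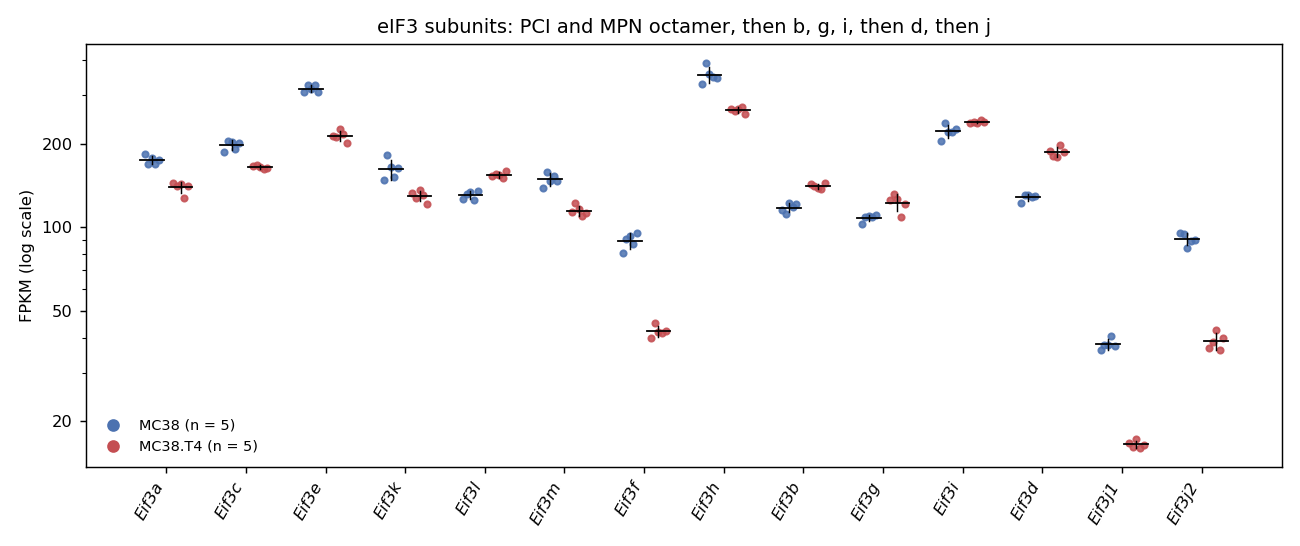
FPKM per library (log scale) of the 14 eIF3 rows, ordered as the octamer subunits, then b, g and i, then d, then the 2 rows of eIF3j. Points are libraries, horizontal bars are means and vertical bars are SD, n = 5 per line. Eif3f, Eif3j1 and Eif3j2 fall by more than 2-fold, while Eif3d rises from 128 to 186 FPKM.

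In the eIF4 group the cap-binding genes rose, while Eif4ebp1, Eif4ebp2 and Eif4enif1, genes of proteins that bind eIF4E, fell. Not all genes of eIF4E-binding proteins fell, since Eif4g1 rose (given below). Of 14 tested genes 6 rose, 6 fell and 2 did not pass. That is 42.9% in each direction, against 43.1% higher and 42.9% lower over all tested genes. Eif4e, which encodes the cap-binding protein, had 125, 134, 125, 131 and 129 FPKM in MC38 and 214, 212, 225, 238 and 229 FPKM in MC38.T4. It rose 1.73-fold, with every MC38.T4 library above every MC38 library (log2 0.79, SE 0.04, adjusted p = 2.73e-11). Eif4ebp1, the best studied of the inhibitors that hold eIF4E off eIF4G, gave 150.1, 167, 160.0, 150.0 and 165 FPKM in the 5 MC38 libraries and 88.1, 98.9, 94.1, 104 and 100.4 FPKM in the 5 MC38.T4 libraries. It fell 1.63-fold without overlap (log2 -0.70, SE 0.05, adjusted p = 1.37e-09). Eif4ebp2, a second inhibitor, fell from 36.8 ± 2.0 to 28.7 ± 1.7 FPKM, and Eif4ebp3 was at or near 0 (at most 0.387 FPKM in any library). Eif4enif1, the shuttling protein 4E-T that binds eIF4E and takes it to processing bodies, was measured at 49.6, 46.7, 47.6, 47.4 and 47.3 FPKM in MC38 and at 31.7, 29.8, 30.8, 30.1 and 29.7 FPKM in MC38.T4. It fell 1.57-fold without overlap (log2 -0.63, SE 0.03, adjusted p = 3.95e-11).

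The balance of Eif4ebp to Eif4e mRNA therefore inverted. The summed FPKM of the 3 binding protein genes was 1.52 ± 0.06 times that of Eif4e in MC38 and 0.563 ± 0.024 times in MC38.T4 (SD, n = 5). On the log2 scale the ratio was 0.61, 0.59, 0.65, 0.50 and 0.65 in MC38 and -0.87, -0.73, -0.87, -0.88 and -0.81 in MC38.T4. The difference was -1.43, the largest ratio in MC38.T4 (-0.73) lying below the smallest in MC38 (0.50), with an exact two-sided permutation p = 0.00794 (n = 5 per line). This is the smallest p that 5 against 5 libraries can give, and it stayed at 0.00794 after adjustment over the 4 ratios and shares tested. It followed from the gene values, since Eif4e rose and Eif4ebp1 and Eif4ebp2 fell, each without overlap. The p is thus no further support. These are mRNA ratios, and phosphorylation of the binding proteins was not measured.

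The relatives of eIF4E rose as well, by less. Eif4e2, a cap-binding protein that represses rather than drives initiation, rose from 61.9 ± 2.7 to 76.7 ± 1.6 FPKM (log2 0.31, SE 0.04, adjusted p = 8.40e-07). Eif4e3 rose from 4.99 ± 0.41 to 5.83 ± 0.17 FPKM (log2 0.19, SE 0.05, adjusted p = 0.00196), with overlap, and was not called after quantile normalization (log2 fold change 0.10, adjusted p = 0.064, within 0.000259 to 1 over 22 alternatives). Per length, Eif4e stood at 2.08 ± 0.07 times Eif4e2 in MC38 and at 2.92 ± 0.16 times in MC38.T4 (SD, n = 5).

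Of the scaffold genes Eif4g1 and Eif4g2 rose and Eif4g3 did not pass. Eif4g2 encodes DAP5, a scaffold that lacks the eIF4E-binding region. It had 243, 225, 223, 236 and 219 FPKM in MC38 and 356, 378, 369.8, 327 and 352 FPKM in MC38.T4. The rise was 1.56-fold without overlap (log2 0.63, SE 0.04, adjusted p = 2.17e-09). Eif4g1, the main scaffold between cap and eIF3, rose from 165 ± 7.9 to 233 ± 9.9 FPKM (log2 0.49, SE 0.04, adjusted p = 1.60e-08). Eif4g3 stood at 25.8 ± 1.3 and 26.3 ± 1.1 FPKM (log2 0.03, SE 0.04, adjusted p = 0.522, 95% interval -0.06 to 0.12).

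Of the helicase genes Eif4a2 and Eif4a3 fell and Eif4a1 did not pass. Eif4a1, the main helicase, gave 496, 579, 529.8, 513 and 537 FPKM in the 5 MC38 libraries and 519, 555, 547, 507 and 536 FPKM in the 5 MC38.T4 libraries. These ranges overlapped and no difference was called (log2 0.01, SE 0.04, adjusted p = 0.908, 95% interval -0.09 to 0.10). After quantile normalization, however, Eif4a1 was called lower (log2 fold change -0.20, adjusted p = 5.03e-05, within 5.03e-05 to 1 over 22 alternatives). Eif4a2, its close paralog, fell from 187 ± 7.1 to 146 ± 3.8 FPKM (log2 -0.36, SE 0.03, adjusted p = 1.10e-07). Eif4a2 made up 26.1% ± 1.2 of the summed FPKM of both in MC38 and 21.5% ± 0.88 in MC38.T4, a difference of -4.60 percentage points without overlap (exact two-sided permutation p = 0.00794, the smallest possible, n = 5 per line). That p followed from the fall of Eif4a2 without overlap beside a nearly level Eif4a1, and is no further support. Eif4a3, the related helicase of the exon junction complex, fell from 131 ± 7.0 to 121 ± 2.3 FPKM (log2 -0.12, SE 0.04, adjusted p = 0.00874), with overlap. Of the helicase cofactors Eif4h fell from 189 ± 3.6 to 148 ± 7.3 FPKM, while Eif4b rose from 212 ± 4.2 to 227 ± 5.1 FPKM. The rise of Eif4b (log2 0.10, SE 0.03, adjusted p = 0.00558) was not called after rescaling to TPM (log2 fold change 0.06, adjusted p = 0.168, within 0.000456 to 1 over 22 alternatives).

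The row Eif4a-ps4, left out by the rule as a pseudogene, was the only one of 10 such rows above the filter. It was measured at 46.5, 39.0, 44.2, 43.9 and 40.4 FPKM in MC38 and at 54.8, 56.5, 68.0, 79.3 and 53.3 FPKM in MC38.T4. All MC38.T4 libraries were higher, with MC38.T4 replicate 4 highest (log2 0.52, SE 0.11, adjusted p = 0.000779). Handling of reads shared with Eif4a genes is not given, so both this row and Eif4a1 are uncertain to that extent. The sum of Eif4a1 and Eif4a-ps4 was 573.8 ± 28 FPKM in MC38 and 595.1 ± 18 FPKM in MC38.T4 (SD, n = 5). The other 9 rows did not exceed 0.163 FPKM.

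**Figure D4:**
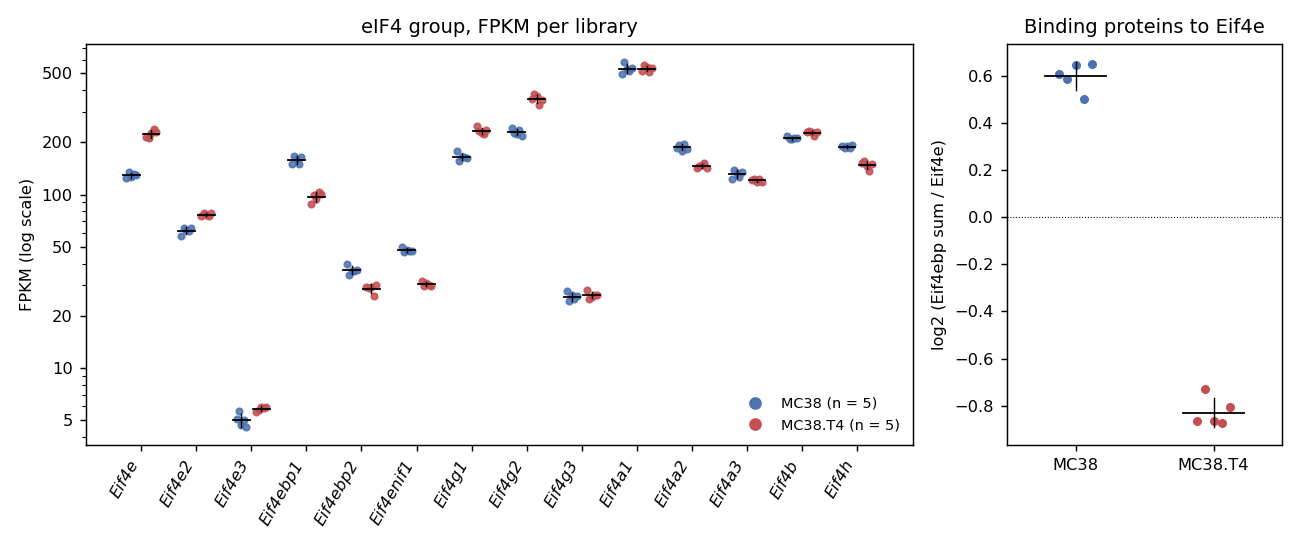
FPKM per library (log scale) of the 14 tested eIF4 genes (left) and log2 of the summed Eif4ebp1, Eif4ebp2 and Eif4ebp3 FPKM over Eif4e FPKM (right). Points are libraries, horizontal bars are means and vertical bars are SD, n = 5 per line. The ratio lies between 0.50 and 0.65 in MC38 and between -0.88 and -0.73 in MC38.T4.

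Of the genes for factors that control start codon choice, Eif1, Eif5 and Eif1a fell, Eif1ax rose and Eif1b did not pass. Eif1 fell furthest. Eif1 had 539, 665, 594, 588 and 644 FPKM in MC38 and 258, 305, 306, 289 and 283 FPKM in MC38.T4. The lines did not overlap, and the fall was 2.10-fold (log2 -1.07, SE 0.06, adjusted p = 2.11e-10). eIF1 keeps the scanning ribosome open and disfavours poor start sites, while eIF5 acts against it. Per length, Eif1 stood at 4.39 ± 0.45 times Eif5 in MC38 and at 3.18 ± 0.14 times in MC38.T4 (SD, n = 5). The paralog Eif1b did not pass, at 21.9 ± 1.3 and 20.8 ± 1.8 FPKM (log2 -0.07, SE 0.06, adjusted p = 0.223, 95% interval -0.19 to 0.04). Without MC38.T4 replicate 2 it was called lower, at a log2 fold change of -0.12 (adjusted p = 0.0375, within 0.0375 to 1 over 22 alternatives). Eif1b made up 3.499% ± 0.16 of the summed FPKM of Eif1 and Eif1b in MC38 and 6.75% ± 0.69 in MC38.T4 (exact two-sided permutation p = 0.00794, the smallest possible, n = 5 per line). That p followed from the fall of Eif1 without overlap beside a far smaller change of Eif1b, and is no further support.

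The start sites of Eif1, Eif1b and Eif5 are shown because eIF1 and eIF5 control start codon choice. Eif3b is added because it shares the context of Eif1, Eif2s3x and Eif2b5 as examples of a full context, and Eif4g2 for its start codon. The sequences come from GENCODE release M21 transcripts (GRCm38, another build than the GRCm39 named for the deposited table), 1 transcript per gene, the APPRIS principal one where annotated. Each runs from 9 bases before the start codon to 1 base after it, with the start codon in capitals.
Eif1: tcgtatcgtATGt
Eif1b: tagtgtcgcATGt
Eif5: taagccaaaATGt
Eif3b: cgcgggcccATGc
Eif2s3x: ccgagcaagATGg
Eif2b5: cgaagcaagATGg
Eif4g2: gccgccaaaGTGg
A favourable context has a purine (A or G) at the third base before the start codon and a G directly after it. Eif1 and Eif1b have neither, and of the 48 tested genes only Eif3b shares this, 6.25% against 6.14% of 10217 tested genes with such a transcript. Eif5 has the purine and lacks the G, and Eif2s3x and Eif2b5 have both. Of the 22 members with both, 12 fell, 8 rose and 2 did not pass. Of the 3 with neither, Eif1 fell, Eif3b rose and Eif1b did not pass, so genes of either context went both ways. Over all tested genes 43.1% rose and 42.9% fell. Among the 48 genes 45.8% have both, against 46.9% of the 10217. Eif4g2 is the 1 gene of the 48 annotated with a start codon other than ATG, the GTG shown above. A context is a description of the annotated transcript and says nothing about which start was used in these cells.

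The eIF1A genes changed in different directions. Eif1a, which encodes a form of the scanning factor eIF1A, fell from 121 ± 4.6 to 83.8 ± 2.1 FPKM (log2 -0.53, SE 0.03, adjusted p = 9.06e-10). Eif1ax, its X-linked paralog, gave 19.5, 21.2, 19.8, 20.4 and 20.2 FPKM in the 5 MC38 libraries and 26.9, 28.7, 29.7, 26.0 and 26.2 FPKM in the 5 MC38.T4 libraries. It rose 1.36-fold without overlap (log2 0.43, SE 0.04, adjusted p = 1.33e-07). The share of Eif1a in the sum of both fell from 85.7% ± 0.59 to 75.3% ± 0.78, a difference of -10.4 percentage points (exact two-sided permutation p = 0.00794, the smallest possible, n = 5 per line). That p followed from the fall of Eif1a and the rise of Eif1ax, both without overlap, and is no further support. How reads shared by the 2 close paralogs were counted is not given. Eif1ad, a gene for a protein with an eIF1A domain, fell from 59.4 ± 1.4 to 51.5 ± 1.8 FPKM (log2 -0.20, SE 0.03, adjusted p = 3.44e-05).

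Among the genes of eIF5A, eIF5B and eIF6, Eif6 and Eif5a2 fell by more than 2-fold. Eif6, which binds the free large subunit, was measured at 317, 355, 348, 334 and 351 FPKM in MC38 and at 147, 154, 144, 149 and 150.2 FPKM in MC38.T4. It fell 2.29-fold without overlap (log2 -1.19, SE 0.04, adjusted p = 1.92e-13). Eif5a2, the minor paralog of the hypusine-carrying factor eIF5A, had 15.5, 13.6, 12.1, 14.7 and 12.05 FPKM in MC38 and 4.97, 5.596, 5.55, 4.91 and 5.10 FPKM in MC38.T4. It fell 2.60-fold, also without overlap (log2 -1.23, SE 0.07, adjusted p = 1.21e-10). Eif5a, the most abundant of all 48 genes, was far less affected. It gave 845, 934, 885, 927 and 923 FPKM in the 5 MC38 libraries and 992, 1012, 937, 940.3 and 942 FPKM in the 5 MC38.T4 libraries. Its MC38.T4 values lay just above the MC38 values (log2 0.10, SE 0.04, adjusted p = 0.0399). That call did not hold widely. It was lost without MC38 replicate 1 (adjusted p = 0.0784), without MC38 replicate 3 (0.0873), without MC38.T4 replicate 1 (0.0895) and without MC38.T4 replicate 2 (0.105), and the direction turned after quantile normalization (log2 fold change -0.021), within 0.0103 to 1 over 22 alternatives. The sum of Eif5a and Eif5a2 was 916.4 ± 37 FPKM in MC38 and 969.6 ± 35 FPKM in MC38.T4 (SD, n = 5). Eif5b, the GTPase that joins the large subunit, was measured at 31.0, 29.7, 30.3, 29.9 and 30.4 FPKM in MC38 and at 32.2, 31.5, 32.6, 28.1 and 31.1 FPKM in MC38.T4. The ranges overlapped and the difference did not pass (log2 0.04, SE 0.04, adjusted p = 0.398, 95% interval -0.05 to 0.12), although it was called higher without MC38.T4 replicate 4 (log2 fold change 0.07, adjusted p = 0.0423, within 0.0216 to 1 over 22 alternatives).

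**Figure D5:**
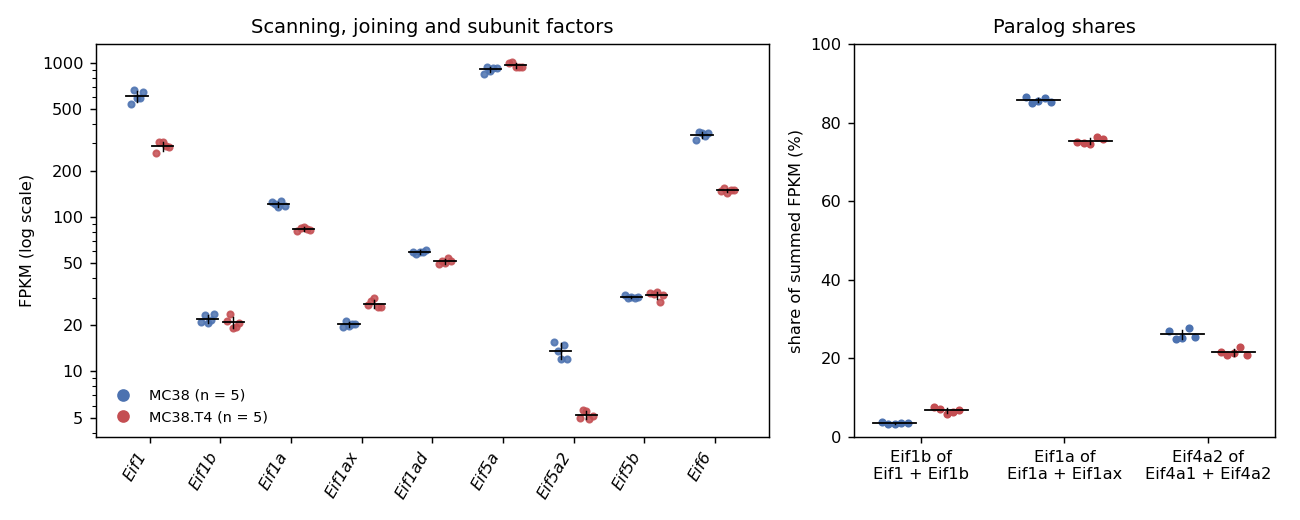
FPKM per library (log scale) of the remaining tested initiation factor genes (left) and the share of 1 paralog in the summed FPKM of a pair, in percent (right). Points are libraries, horizontal bars are means and vertical bars are SD, n = 5 per line. Eif1, Eif5a2 and Eif6 fall by more than 2-fold, and the share of Eif1a moves from 85.7% to 75.3%.

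Promoters were searched for the E-box CACGTG, the motif bound by MYC family factors, because several initiation factor genes are known MYC targets. RefSeq promoter windows (GRCm38.p6, 250 bases before to 50 after a start, both strands, which are the same for this palindrome) were matched by symbol for 38 of the 48 genes. At least 1 window held the motif for 10 of the 38 genes (26.3%), against 12.1% of 8675 tested genes with a window and 8.09% of all 27025 genes in the promoter table. Of windows, 24.0% held it for initiation factor genes, 10.2% for tested genes and 7.15% for all genes in the promoter table. Of the 10 genes 5 fell, 3 rose and 2 did not pass, and of the 28 without it 15 fell, 10 rose and 3 did not pass. Genes with the motif thus went both ways, as did tested genes at large (43.1% higher and 42.9% lower). Eif4e, which rose, and Eif5a2, which fell, are shown because each has 2 copies within 250 bases before a start. Both sequences are on the plus strand, with the E-box in capitals.
Eif4e, chr3:138527018-138527267: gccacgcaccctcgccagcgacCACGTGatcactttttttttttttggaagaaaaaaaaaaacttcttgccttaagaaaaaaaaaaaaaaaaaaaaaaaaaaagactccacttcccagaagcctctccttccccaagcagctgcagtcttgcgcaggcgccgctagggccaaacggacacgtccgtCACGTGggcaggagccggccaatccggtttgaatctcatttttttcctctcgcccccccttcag
Eif5a2, chr3:28781027-28781276: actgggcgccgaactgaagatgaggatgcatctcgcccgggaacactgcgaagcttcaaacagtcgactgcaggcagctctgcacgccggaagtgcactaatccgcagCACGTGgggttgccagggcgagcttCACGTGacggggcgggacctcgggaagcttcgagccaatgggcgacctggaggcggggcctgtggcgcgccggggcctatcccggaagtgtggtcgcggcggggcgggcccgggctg
In the Eif4e sequence shown the first bases of the copies lie 228 and 64 bases before the start, and in Eif5a2 142 and 117 bases before it. The other Eif4e window, with its bases before the start at chr3:138525941-138526190, held no copy. The C/EBP-ATF element TGATGNAA, searched on both strands, was found for 1 of the 38 genes, Eif2s3x (2.63%, against 2.57% of tested genes and 4.51% of all genes in the promoter table). A match is a description of the sequence and no sign of binding.

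Genes around the initiation factors were taken from lists of regulators and neighbours in the pathway. Of 6 genes for eIF2alpha kinases and the subunits that direct its phosphatase 3 fell, 2 rose and 1 did not pass. That is 50% lower and 33.3% higher, against 42.9% lower and 43.1% higher over all tested genes. Ppp1r15a, the stress-inducible phosphatase subunit, fell from 254 ± 6.3 to 25.0 ± 7.3 FPKM, and its constitutive relative Ppp1r15b from 61.1 ± 4.4 to 27.1 ± 1.3 FPKM. The kinase genes went apart. Eif2ak1 (HRI), the highest of the 4 in MC38 and named after its values were seen, fell from 23.2 ± 0.61 to 13.7 ± 0.33 FPKM without overlap. Eif2ak3 (PERK) did not pass, at 6.17 ± 0.41 and 6.53 ± 0.18 FPKM. Eif2ak2 (PKR) rose from 16.5 ± 1.5 to 21.1 ± 0.83 FPKM and Eif2ak4 (GCN2) from 11.7 ± 0.87 to 13.2 ± 0.51 FPKM. The substrate Eif2s1, both phosphatase subunit genes and 1 of the 4 kinase genes thus fell, while 2 kinase genes rose.

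Of 19 tested genes for cap complex and mTORC1 regulators 10 rose, 5 fell and 4 did not pass. That is 52.6% higher and 26.3% lower, against 43.1% higher and 42.9% lower over all tested genes. Ncbp2, which encodes the small subunit of the nuclear cap-binding complex, rose from 23.0 ± 0.46 to 61.1 ± 4.2 FPKM. Pdcd4, an inhibitor of the eIF4A helicase, rose from 3.87 ± 0.38 to 8.03 ± 0.40 FPKM. Cyfip1, whose protein also binds eIF4E and is not in the ratio above, rose from 22.3 ± 0.71 to 39.4 ± 0.59 FPKM. Mknk1, a kinase that phosphorylates eIF4E, fell from 11.2 ± 0.45 to 7.87 ± 0.58 FPKM, and Paip2b, an inhibitor of the poly(A)-binding protein, from 23.2 ± 1.3 to 18.1 ± 0.66 FPKM.

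Of 8 other initiation, reinitiation and recycling genes 1 rose, 4 fell and 3 did not pass. That is 12.5% higher and 50% lower, against 43.1% higher and 42.9% lower over all tested genes. Bzw1, which encodes an eIF5 mimic protein, rose from 123 ± 9.4 to 176 ± 6.7 FPKM. Mcts1, a reinitiation factor, fell from 16.7 ± 0.82 to 11.8 ± 1.3 FPKM and its copy Mcts2 from 19.4 ± 1.5 to 14.0 ± 1.4 FPKM, with the split between these copies uncertain. The enzymes that make hypusine on eIF5A went apart: Dhps rose from 7.62 ± 0.50 to 14.2 ± 0.86 FPKM and Dohh fell from 47.4 ± 2.2 to 24.0 ± 0.95 FPKM.

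Of 7 tested genes on the elongation factor list 6 rose and 1 fell, where 43.1% of all tested genes rose and 42.9% fell. The list includes Eef2k, the kinase that inhibits eEF2, which was among those that rose. The median log2 fold change of the list, which is the value of Eef2k, was 0.50, against 0.00 over all tested genes and -0.23 for the initiation factor genes. Eef1g, a subunit of the exchange complex of eEF1A, rose from 467 ± 28 to 949 ± 9.8 FPKM, and Eef1a1, which carries tRNA to the ribosome, from 2863 ± 81 to 4241 ± 173 FPKM. Eef1e1, a scaffold of tRNA synthetases, fell from 38.2 ± 2.1 to 23.3 ± 1.3 FPKM. Eif5a and Eif5a2 are counted with the initiation factor genes by their symbols alone. The difference between the 2 lists was not tested. Of 3 termination factor genes Gspt1 rose from 87.4 ± 1.8 to 134 ± 3.0 FPKM, while Etf1 fell from 162 ± 7.2 to 109 ± 3.2 FPKM and Gspt2 from 7.55 ± 0.43 to 4.99 ± 0.34 FPKM.

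The 23 rows below the filter carried almost no signal. Of 17 numbered Eif1ad rows 6 were listed at 0 in all libraries, and the highest value was 0.538 FPKM (Eif1ad2, in an MC38 library). The Eif4a3l rows, named after Eif4a3, did not exceed 0.0368 FPKM. The remaining 4 were Eif2s3y and Eif4ebp3, given above, Eif4e1b, a germline relative of Eif4e (at most 0.0125 FPKM), and Eif2c5 (at most 0.0807 FPKM). Eif2c5 met the rule by its symbol alone, since the RefSeq gene table lists it as a noncoding gene with the Argonaute synonym Ago5. No fold is given for these rows.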

How the data were processed

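Poly(A)-selected, stranded libraries were sequenced, per the labels' protocols. The authors deposited 1 table of FPKM per gene and library, with symbols as identifiers. The submitters' processing notes name GRCm39 and DESeq2, without version or role, and no aligner, counting program or annotation is named. FPKM is a share of the library scaled by gene length, so a rise of some abundant genes lowers the values of the rest. All columns were mapped by library name, and none was pooled.

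Genes at or above an FPKM of 1 in 5 or more libraries were tested with limma 3.58.1 (R 4.3.3) on log2(FPKM + 1), with trend and robust moderation, a group term, two-sided tests and Benjamini-Hochberg adjustment over 11110 genes. This scale understates changes of low genes. Adjusted p-values in the text are from this fit unless another is named. Values are mean FPKM ± SD over 5 libraries per line, and folds are ratios of mean FPKM. Ratios and paralog shares were tested by exact permutation of libraries in Python 3.11.15 with SciPy 1.17.1. On simulated data for the 11110 genes of this comparison, with 200 genes changed, the code recovered 74% of changes of 0.25 on the log2 scale and 98% of changes of 0.5, and 4.64% of calls were unchanged genes. Far more genes, 86%, were called in the data, so these simulated shares need not hold for the real comparison.

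Members, lists and tests were chosen with earlier results of these data known. Per-library values are given, within each complex, for the 2 largest rises, the 2 largest falls and the smallest change, and also for Eif1 and Eif4a-ps4, chosen after their values were seen. From each related list at most 2 rises and 2 falls are named, with Cyfip1, Eif2ak1, Eif2ak3 and Eef2k added after their values were seen. Alternatives were other pseudocounts, filters, scalings and moderation, array weights, a replicate block, leaving out libraries, a rank-sum test and limma's treat. No count test was run, since the table holds no counts.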

Additional observations from a re-analysis of the deposited data

Results flagged for a closer look

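In 104 groups of 5 libraries (48 genes and 4 ratios in each line), 5 had 1 library far from the other 4 by Dixon's criterion, which chance gives in about 1 of 20 groups. In MC38.T4 replicate 4, Eif2b3 stood at 38.7 FPKM (35.0 to 36.0 in the other MC38.T4 libraries), Eif3a at 127 FPKM (140.7 to 144.4), Eif4b at 219 FPKM (228.2 to 231.7) and Eif4ebp2 at 25.9 FPKM (29.0 to 30.2). In MC38 replicate 1, Eif3g stood at 103 FPKM (108.4 to 110.3 in the other MC38 libraries). Without MC38.T4 replicate 4 the log2 fold changes of Eif2b3, Eif3a, Eif4b and Eif4ebp2 were -0.22, -0.29, 0.12 and -0.31, and without MC38 replicate 1 that of Eif3g was 0.16. All 5 genes stayed on the same side of the threshold there.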

How the results depend on the processing

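Against a fold of 1.5 (limma's treat) 2 members rose and 9 fell, and 3474 of all genes were called. This alternative asks for a larger change, and 32 of the 43 calls were lost. The median log2 fold change of the members was -0.030 with no filter, which adds rows at or near 0, and -0.28 after rescaling to TPM. After quantile normalization the log2 fold changes of Eif4a1 (-0.20) and Eif5a (-0.021) had the other sign. Leaving out each library in turn gave 15 to 17 rises and 27 or 28 falls, and 9052 to 9379 calls over all genes. Apart from treat, 9 members changed their call under some alternative (Eif1b, Eif2b4, Eif3g, Eif3i, Eif4a1, Eif4b, Eif4e3, Eif5a and Eif5b). Scaling moved the median of all genes by less than 0.05. With the replicate number as a block 15 members rose and 27 fell (9534 calls over all genes), and Eif5a was the 1 member call lost (adjusted p = 0.0569). Deviations of same-numbered libraries correlated between -0.13 and 0.14, above 0.1 in 2 of 5 pairs. Of the 5 MC38 libraries 2 correlated best with their own number. No clear pairing by number was seen, but so few values cannot exclude one. With that block as paired differences, the ratio of binding proteins to Eif4e (-1.43) and the shares of Eif4a2 (-4.60), Eif1b (3.25) and Eif1a (-10.4 percentage points) had an exact p = 0.0625, the smallest 5 pairs can give. Without both libraries that stand apart 16 members rose and 28 fell. Read totals are not given, so counting error could not be separated from other spread.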
